A study of Mus musculus with 11 samples.

Results

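miR-146 and miR-155 are microRNAs (miRNAs) tied to NF-kB, the transcription factor that antigen receptors and innate immune receptors switch on. The 5 miRNAs described here, miR-146a-5p, miR-146a-3p, miR-146b-5p, miR-155-5p and miR-155-3p, were taken by name from a table of 1978 mature mouse miRNA names counted by small RNA sequencing, where they stand as mmu-miR-146a-5p, mmu-miR-146a-3p, mmu-miR-146b-5p, mmu-miR-155-5p and mmu-miR-155-3p. All 5 had a count in at least 1 library, and 4 of the 5 passed the filter on low counts and were tested, miR-146a-3p being left out. The suffix gives the arm of the hairpin precursor, 5p or 3p, from which the mature strand is cut.

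The 11 libraries came from splenic CD8+ T cells of mice labelled dirty or clean, sorted as CD4-, CD49dlo and GFP+. Cells that were CD44hi are named stamped VM, and cells that were CD44lo are named stamped TN. Virtual memory (VM) cells carry a memory phenotype without having met foreign antigen, and true naive (TN) cells do not carry it. There were 3 Dirty_VM libraries, 3 Dirty_TN, 3 Clean_VM and 2 Clean_TN (replicates 2 and 3). The labels give no strain, genotype, age or sex, and do not say what dirty or stamped means or which construct gives the GFP. Per the labels' protocols 10000 sorted cells at over 95% purity went into each RNA extraction. Nothing says that replicates came from separate animals, so p-values measure the spread between these libraries, which may be technical.

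A miRNA guides Argonaute proteins to messenger RNAs that pair with its seed, the bases just after the first at its 5′ end, and these messages are then repressed. NF-kB drives transcription of the precursors of miR-146a and miR-155 in activated immune cells. miR-146a acts as a brake, since it represses Traf6 and Irak1, which carry signals to NF-kB, and it limits T cell responses. miR-155 represses Socs1, an inhibitor of cytokine signalling, and Inpp5d, which encodes the phosphatase SHIP1, and CD8+ T cells need it for full effector responses.

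The mature sequences show which of these miRNAs can bind the same messages. They are from RefSeq (build GRCm38.p6), run 5′ to 3′, and have the seed (bases 2 to 8) in capitals.
miR-146a-5p: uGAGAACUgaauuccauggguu
miR-146b-5p: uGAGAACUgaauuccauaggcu
miR-146a-3p: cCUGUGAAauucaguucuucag
miR-155-5p: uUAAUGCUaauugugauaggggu
miR-155-3p: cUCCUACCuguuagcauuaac
miR-146a-5p and miR-146b-5p share their seed and their first 17 bases. They differ at 2 of 22 positions, written as G18A and U21C with the miR-146a-5p base first and positions counted from the 5′ end. The seeds of the other 3 differ from this one and from each other, so only the miR-146 pair has a common set of seed matches.

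The hairpins show where each mature strand lies in its precursor, with both arms in capitals.
Mir146: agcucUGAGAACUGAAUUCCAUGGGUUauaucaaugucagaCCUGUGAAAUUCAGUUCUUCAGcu
Mir146b: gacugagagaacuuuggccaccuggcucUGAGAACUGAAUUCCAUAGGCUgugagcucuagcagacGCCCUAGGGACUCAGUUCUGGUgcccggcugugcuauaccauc
Mir155: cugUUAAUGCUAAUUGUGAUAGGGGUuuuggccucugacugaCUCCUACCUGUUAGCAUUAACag
Mir146, the gene of miR-146a, lies on the minus strand at chr11:43374397-43374461, where GENCODE M21 (the same build) has no overlapping gene other than the hairpin itself. Mir146b lies on the plus strand at chr19:46342762-46342870, inside an intron of Mfsd13a. Mir155 lies on the plus strand at chr16:84714140-84714204, in exon 2 of the long non-coding RNA Mir155hg. The miR-146a and miR-146b genes are thus on different chromosomes.

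Sites in 3′ untranslated regions of the textbook targets show what the seeds pair with, the match in capitals and written as DNA. Each is the first match in the gene's longest GENCODE M21 3′ untranslated region.
Traf6, chr2:101697944-101697967, plus strand: accgctctggtgttgAGTTCTCat
Irak1, chrX:74015392-74015415, minus strand: agactcagaggtcaaAGTTCTCat
Socs1, chr16:10784205-10784228, minus strand: ctgccgctgtgccgcAGCATTAag
Inpp5d, chr1:87719823-87719846, plus strand: gagatgtttttaaaaAGCATTAaa
The match to miR-146a-5p and miR-146b-5p, AGTTCTC, occurs 4 times in this region of Traf6 and 2 times in that of Irak1. The match to miR-155-5p, AGCATTA, occurs 1 time in Socs1 and 1 time in Inpp5d. Searched on the sense strand only, AGTTCTC stands in 11.1% and AGCATTA in 8.27% of the longest 3′ untranslated regions of 20981 genes. A match is a description of the sequence, and no messenger RNA was measured here.

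Total estimated counts lay between 2614396 and 16312004 per library, so 3 counts, the floor used here, stood for 0.180 to 1.23 CPM (counts scaled to a common library size). Such floors cover counting error only. CPM values use library totals scaled by the trimmed mean of M-values (TMM). Lymphocyte miRNAs were high in all groups, with miR-150-5p averaging 86834 CPM in Dirty_VM, 95440 in Dirty_TN, 86675 in Clean_VM and 130832 in Clean_TN, although miRNAs alone do not separate CD8+ from other T cells. Of 5 markers of haematopoietic cells, lymphocytes or T cells 2 fell in VM cells in the mean over environments, against 12.3% of all rows. They were miR-181a-5p, with a log2 change of -1.69, and the haematopoietic miR-142a-5p, with one of -0.90. The other arm of that hairpin, miR-142a-3p, did not pass (-0.14, edgeR adjusted p = 0.468). None of the 5 markers had a mean log2 change above 0. Their median was -0.45, against 0.09 over all rows. Scaling to library totals alone instead of TMM moved the median log2 change of all rows to -0.127, against 0.082 with TMM, for VM against TN in clean mice. Relative to that median miR-146a-5p stood at 0.91 under library totals and 0.93 under TMM in clean mice, and at 1.07 and 1.10 in dirty mice.

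miR-146a-5p, the strand that acts on Traf6 and Irak1, was the most abundant of the 5 and was about 2-fold more abundant in VM than in TN cells of both environments. Its levels were 16278, 26298 and 17154 CPM in Dirty_VM against 9147, 9931 and 8443 CPM in Dirty_TN. They were 24432, 15774 and 19426 CPM in Clean_VM against 9405 and 10362 CPM in Clean_TN. All 6 VM libraries lay above all 5 TN libraries. The group means were 19910 ± 5549 CPM in Dirty_VM (SD, n = 3), 9174 ± 744 in Dirty_TN (n = 3), 19878 ± 4347 in Clean_VM (n = 3) and 9883 ± 677 in Clean_TN (n = 2). It made up between 1.53 and 2.47% of the counts of a VM library and between 0.763 and 1.11% of those of a TN library. The SD was 27.9% of the mean in Dirty_VM, 8.11% in Dirty_TN, 21.9% in Clean_VM and 6.85% in Clean_TN. With 2 or 3 libraries per group, whether VM libraries spread more was not tested. In a bulk sample more cells with the miRNA and more of it per cell cannot be told apart.

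**Figure D1:**
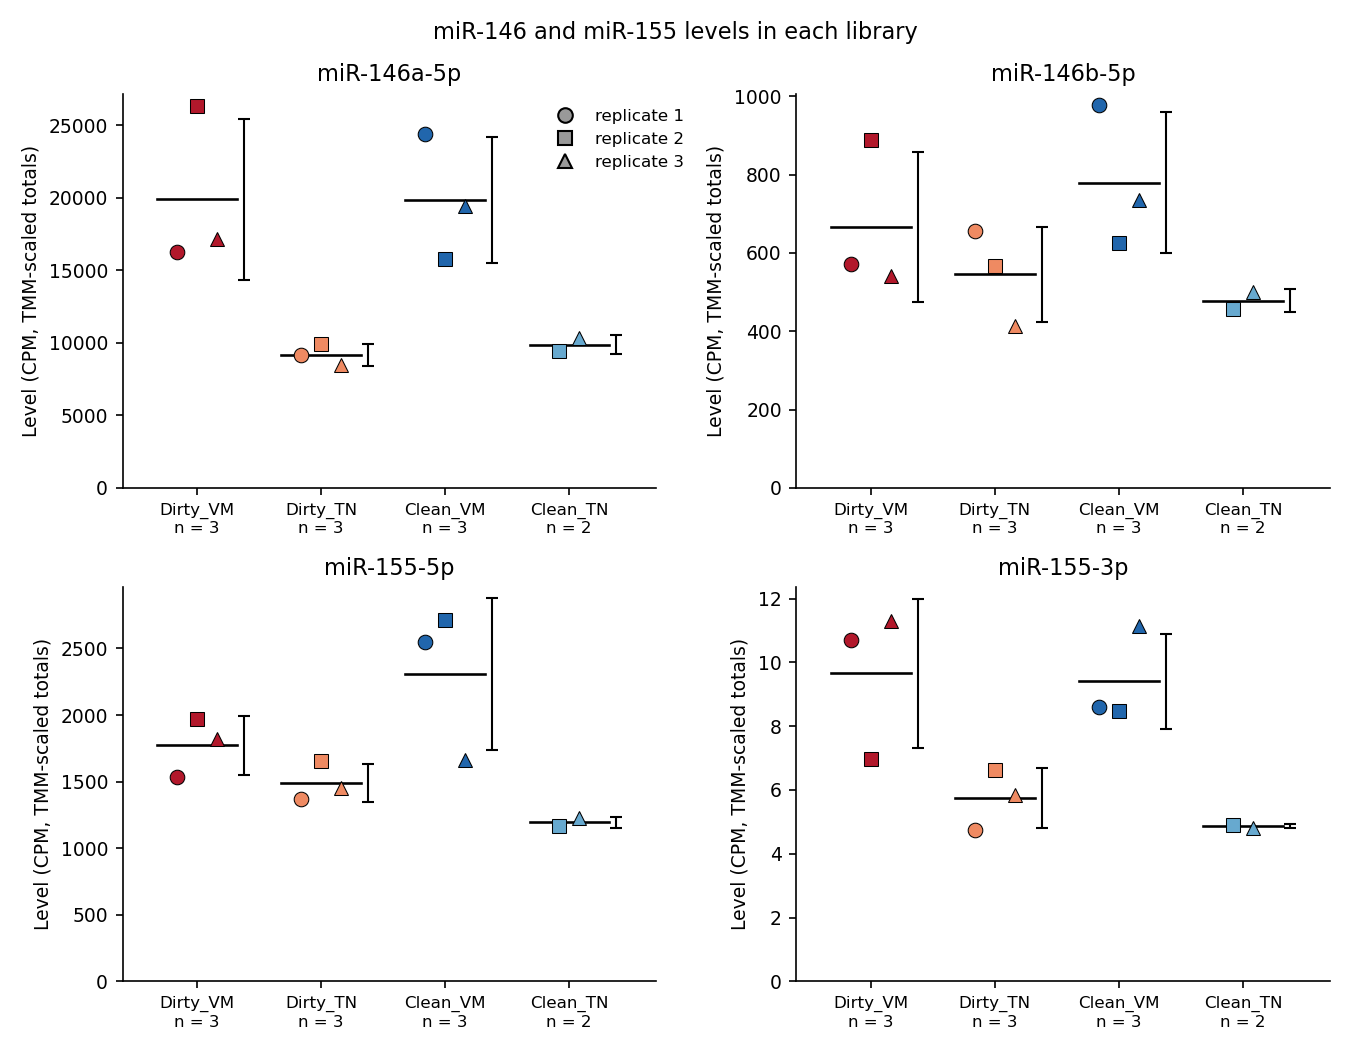
Level of each tested miRNA in every library, in CPM on TMM-scaled totals, with axes starting at 0. Symbols are replicates, the horizontal line is the group mean and the bar beside it the SD. The VM libraries of miR-146a-5p, between 15774 and 26298 CPM, lie above all TN libraries, between 8443 and 10362 CPM, while those of miR-155-5p overlap in dirty mice.

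VM and TN cells were then compared in a single edgeR quasi-likelihood fit over the 545 rows that passed the filter. In the mean over both environments 3 of the 4 tested miRNAs rose in VM cells, miR-146a-5p, miR-155-5p and miR-155-3p, and none fell. Among all rows 11.4% rose and 12.3% fell (23.7% passed in either direction), and the median log2 change was 0.09. miR-146a-5p had a log2 change of 1.06 ± 0.16 (SE, edgeR adjusted p = 0.000556). In dirty mice it was 1.12 ± 0.22 (edgeR adjusted p = 0.00476), where 6.24% of all rows rose and 5.87% fell. In clean mice it was 1.01 ± 0.25 (edgeR adjusted p = 0.0146), where 9.72% of all rows rose and 7.71% fell. The difference between these changes, the interaction, was 0.11 ± 0.32 (edgeR adjusted p = 0.942). The mean change passed under every alternative run, with edgeR, DESeq2 or limma adjusted p-values of at most 0.00592. The call in clean mice alone ended without Clean_TN replicate 2 (0.87, edgeR adjusted p = 0.131), without Clean_TN replicate 3 (0.95, edgeR adjusted p = 0.111) and without Clean_VM replicate 3 (0.82, edgeR adjusted p = 0.0569), within a range of 0.00134 to 0.131 over all alternatives. That call also ended in a fit that took same-numbered libraries of an environment as pairs (edgeR adjusted p = 0.0540).

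miR-146b-5p, which carries the same seed from another chromosome, had a smaller fitted change, which did not pass. It stood at 572, 888 and 542 CPM in Dirty_VM against 655, 568 and 415 CPM in Dirty_TN. In clean mice it stood at 979, 626 and 734 CPM in Clean_VM against 458 and 499 CPM in Clean_TN. The libraries overlapped in dirty mice and did not in clean mice. Its mean level was 667 ± 192 CPM in Dirty_VM (SD, n = 3), 546 ± 122 in Dirty_TN (n = 3), 780 ± 181 in Clean_VM (n = 3) and 478 ± 29.2 in Clean_TN (n = 2). The mean log2 change was 0.50 ± 0.19 (edgeR adjusted p = 0.0753), with 0.29 ± 0.25 in dirty mice (edgeR adjusted p = 0.528) and 0.70 ± 0.28 in clean mice (edgeR adjusted p = 0.109). DESeq2 called the mean change (adjusted p = 0.0401), as did edgeR with no filter beyond 1 count (0.0494), within 0.0401 to 0.195 over all alternatives.

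**Figure D2:**
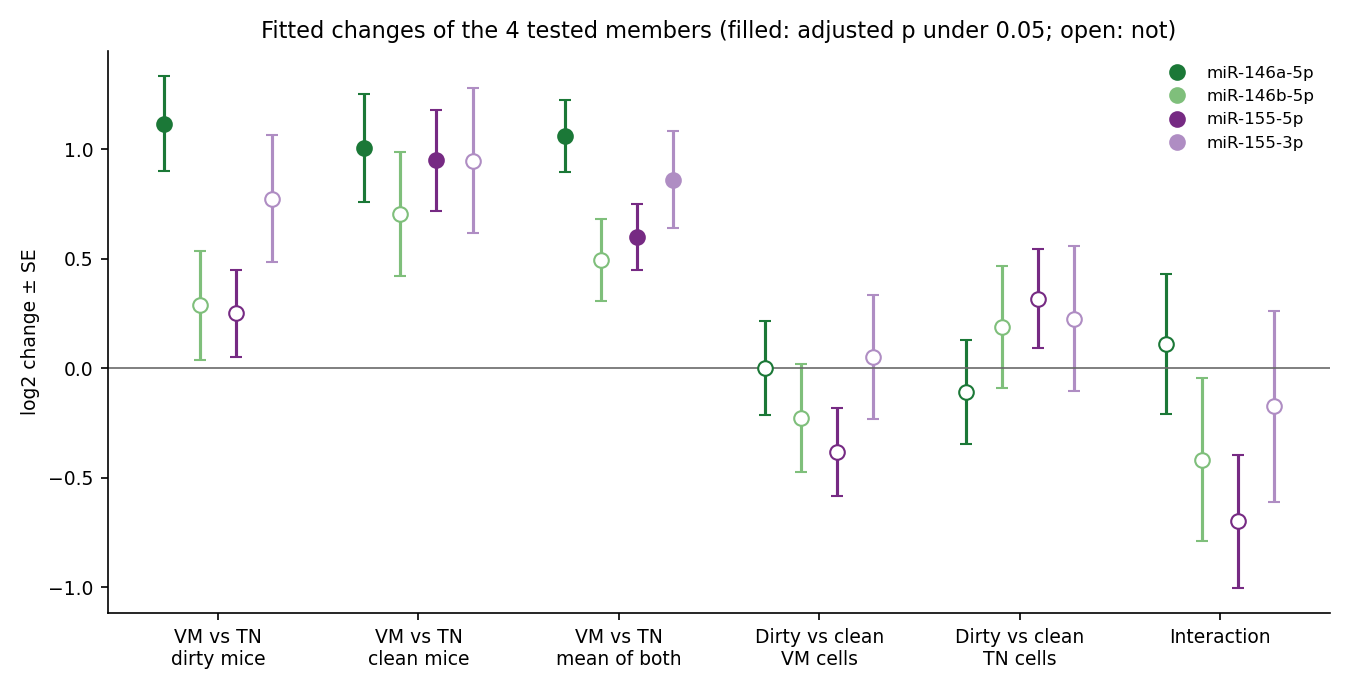
Fitted log2 change ± SE of the 4 tested miRNAs in the 6 comparisons of the edgeR fit, filled where the adjusted p was under 0.05 and open otherwise. miR-146a-5p is filled in dirty mice, in clean mice and in their mean, at 1.12, 1.01 and 1.06, and no miRNA is filled for dirty against clean or the interaction.

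The shared seed makes the balance of the 2 miR-146 strands a measure of its own, because a ratio within a library needs no scaling between libraries. There were 28.5, 29.6 and 31.6 miR-146a-5p counts per miR-146b-5p count in Dirty_VM against 14.0, 17.5 and 20.4 in Dirty_TN. In Clean_VM there were 25.0, 25.2 and 26.5 against 20.5 and 20.8 in Clean_TN. Every VM library lay above every TN library. The ratio was 1.47-fold higher in VM cells, a log2 difference of 0.56 (two-sided exact permutation test within environments, p = 0.005, the smallest that 200 relabelings can give; adjusted p = 0.04 over the 8 ratio tests). The log2 difference was 0.81 in dirty mice and 0.31 in clean mice. Leaving out any 1 library kept it between 0.48 and 0.62. With fewer relabelings its adjusted exact p then lay between 0.0667 and 0.133.

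Reads that fit both strands may touch these values. The estimated counts of miR-146a-5p and miR-146b-5p both had a fraction of exactly 0.5 in 5 of the 11 libraries, were both whole in 6, and in 0 libraries did only 1 of them have it. Evenly split reads would leave such a pattern, but how shared reads were counted is not given in the sources used here, and it was not tested. The miR-146b-5p count was between 3.16 and 7.16% of the miR-146a-5p count, which is the most that evenly split reads could have added to miR-146a-5p. With the rows summed, the mean log2 change of VM against TN was 1.03 (edgeR adjusted p = 0.000475). With the whole miR-146b-5p count taken off the miR-146a-5p row it was 1.09 (edgeR adjusted p = 0.000451). For miR-146b-5p no such limit can be set, since all of its count could be shared, and its values and the ratio carry that uncertainty.

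The 3p strands of both miR-146 hairpins were at the limit of detection. miR-146a-3p had estimated counts of 0, 1 and 3 in Dirty_VM, 1, 0 and 0 in Dirty_TN, 0, 5 and 4 in Clean_VM and 4 and 0 in Clean_TN. miR-146b-3p, the partner arm of miR-146b-5p and not among the 5, had 1, 1 and 4 in Dirty_VM, 0, 3 and 6 in Dirty_TN, 0, 0 and 0 in Clean_VM and 1 and 0 in Clean_TN. Neither passed the filter on low counts, and no difference was detectable at this depth. The log2 ratio of miR-146a-5p to miR-146a-3p differed by 0.17 between VM and TN cells (two-sided exact permutation test, p = 0.82) and by 0.69 between dirty and clean mice (p = 0.315, adjusted p = 0.74). The 3p counts were too few for this ratio to be read further.

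miR-155-5p, the strand that acts on Socs1 and Inpp5d, was higher in VM cells in the mean over environments and in clean mice, and in dirty mice its change did not pass. It stood at 1533, 1968 and 1819 CPM in Dirty_VM against 1369, 1652 and 1449 CPM in Dirty_TN, where the libraries overlapped. It stood at 2548, 2716 and 1659 CPM in Clean_VM against 1164 and 1225 CPM in Clean_TN, where they did not. Its means were 1773 ± 221 CPM in Dirty_VM (SD, n = 3), 1490 ± 145.9 in Dirty_TN (n = 3), 2308 ± 568 in Clean_VM (n = 3) and 1195 ± 43.0 in Clean_TN (n = 2). The order of the means was thus Clean_VM, Dirty_VM, Dirty_TN and Clean_TN, and the libraries of Clean_VM and Dirty_VM, and of Dirty_VM and Dirty_TN, overlapped.

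The log2 change of miR-155-5p was 0.60 ± 0.15 in the mean (SE, edgeR adjusted p = 0.0118), 0.25 ± 0.20 in dirty mice (edgeR adjusted p = 0.487) and 0.95 ± 0.23 in clean mice (edgeR adjusted p = 0.0146). The difference between dirty and clean mice was -0.70 ± 0.30, with an unadjusted p of 0.0375 and an edgeR adjusted p of 0.256, so a different change in the 2 environments was not shown. The mean change did not pass without Clean_TN replicate 2 (0.57, edgeR adjusted p = 0.0532) or replicate 3 (0.53, edgeR adjusted p = 0.0602), within 0.00112 to 0.0602 over all alternatives. In clean mice the call also ended without Clean_TN replicate 2 (0.84, edgeR adjusted p = 0.124), Clean_TN replicate 3 (0.84, edgeR adjusted p = 0.121) or Clean_VM replicate 2 (0.64, edgeR adjusted p = 0.0749), within 0.000704 to 0.124. With same-numbered libraries of an environment taken as pairs, neither call passed (edgeR adjusted p = 0.056 in the mean and 0.0721 in clean mice).

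miR-155-3p, the less abundant strand of the same hairpin, was also higher in VM cells. Its levels were 10.7, 6.99 and 11.3 CPM in Dirty_VM against 4.75, 6.63 and 5.85 CPM in Dirty_TN. They were 8.59, 8.48 and 11.1 CPM in Clean_VM against 4.92 and 4.82 CPM in Clean_TN. VM and TN libraries did not overlap in either environment, although Dirty_VM replicate 2 lay just above the highest Dirty_TN library. Behind these levels stood estimated counts of 36, 17 and 188 in Dirty_VM, 37, 23 and 72 in Dirty_TN, 32, 87 and 111 in Clean_VM and 54 and 16 in Clean_TN. The mean log2 change was 0.86 ± 0.22 (SE, edgeR adjusted p = 0.0122), with 0.78 ± 0.29 in dirty mice (edgeR adjusted p = 0.109) and 0.95 ± 0.33 in clean mice (edgeR adjusted p = 0.0677). The mean change did not pass without Clean_TN replicate 2 (0.86), Clean_TN replicate 3 (0.78), Clean_VM replicate 3 (0.67) or Dirty_VM replicate 3 (0.75), with edgeR adjusted p-values between 0.0559 and 0.0975, and over all alternatives they ranged from 0.00822 to 0.0975.

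VM and TN libraries did not overlap in either environment, with VM higher, for miR-146a-5p and miR-155-3p, 2 of the 4 tested miRNAs, and for 7.52% of all rows. In dirty mice alone these 2 did not overlap, as against 16.9% of all rows that were higher. In clean mice alone all 4 did not overlap, as against 28.3% of all rows that were higher.

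The balance of the 2 strands of the miR-155 hairpin was not shown to differ between groups. There were 143, 282 and 161 miR-155-5p counts per miR-155-3p count in Dirty_VM against 288, 249 and 248 in Dirty_TN, and 297, 320 and 149 in Clean_VM against 237 and 254 in Clean_TN. The log2 ratio differed by -0.24 between VM and TN cells (exact permutation test, two-sided p = 0.37, adjusted p = 0.74) and by -0.14 between dirty and clean mice (p = 0.64, adjusted p = 0.89). VM libraries were the lowest and the highest of the 11.

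The ratio of miR-146a-5p to miR-155-5p set the brake against the miRNA of effector responses. There were 10.6, 13.4 and 9.43 miR-146a-5p counts per miR-155-5p count in Dirty_VM against 6.68, 6.01 and 5.83 in Dirty_TN. There were 9.59, 5.81 and 11.7 in Clean_VM against 8.08 and 8.46 in Clean_TN. The groups did not overlap in dirty mice, where the log2 difference was 0.84, and overlapped in clean mice, where it was 0.07. Over both environments it was 0.45 (exact permutation test, two-sided p = 0.085, adjusted p = 0.34), so VM and TN cells were not shown to differ. Between dirty and clean mice it was -0.04 (exact permutation test, two-sided p = 0.865, adjusted p = 0.89).

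**Figure D3:**
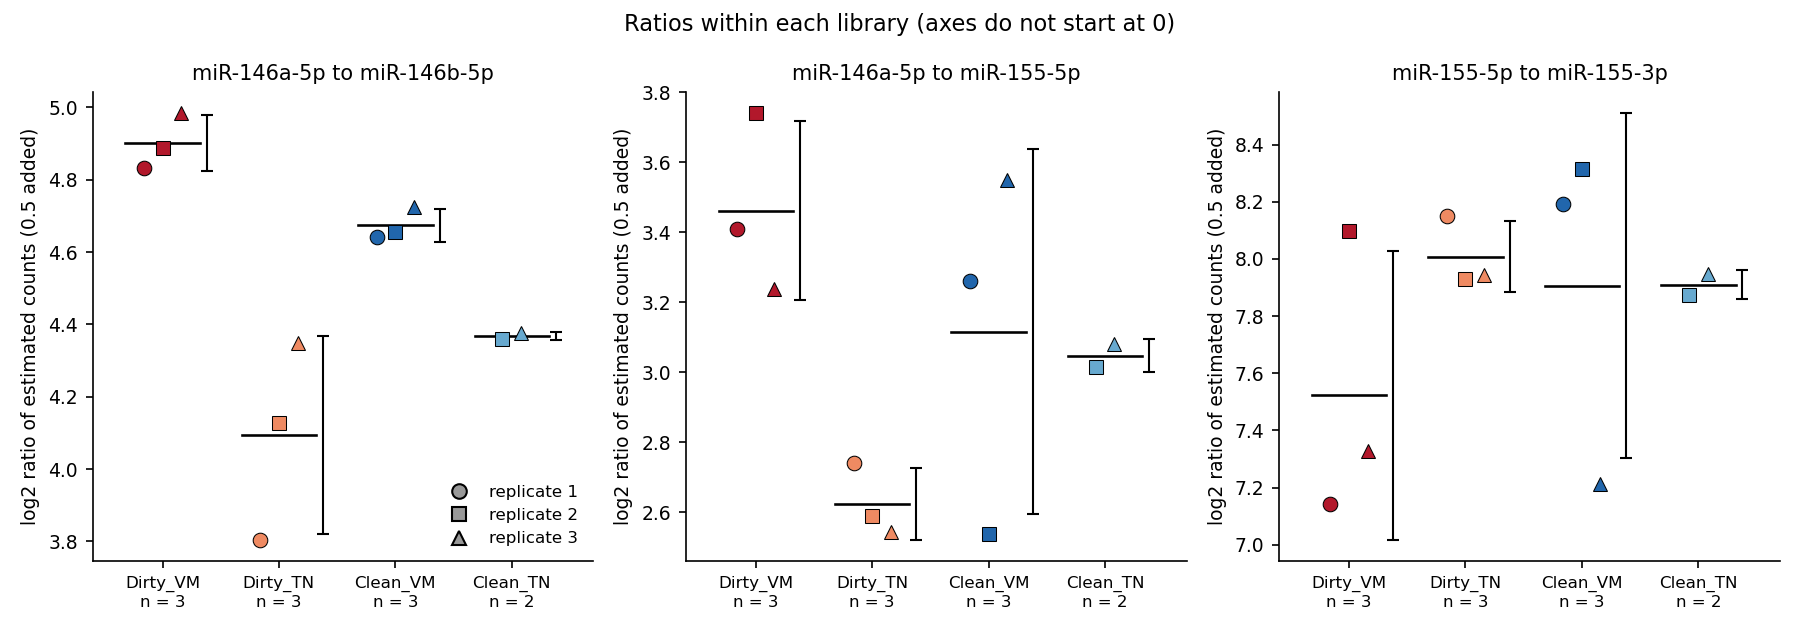
Log2 ratio of the estimated counts of 2 miRNAs within each library, with 0.5 added to each count. Symbols are replicates, lines are group means and bars the SD, and the axes do not start at 0. Every VM library lies above every TN library for miR-146a-5p to miR-146b-5p, whereas the groups overlap for miR-155-5p to miR-155-3p.

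Dirty and clean mice were compared within each subset to ask whether the environment moved these miRNAs. None of the 4 tested passed in VM cells, in TN cells or in the interaction, and 0.0% of all rows passed in each of the 3 comparisons by edgeR. At an unadjusted p under 0.05 there were 81 rows in VM cells, 38 in TN cells and 93 for the interaction, and DESeq2 called 22, 3 and 41. In VM cells miR-146a-5p had a log2 change of 0.0023 ± 0.21, miR-146b-5p -0.23 ± 0.25, miR-155-5p -0.38 ± 0.20 and miR-155-3p 0.054 ± 0.28 (SE, edgeR adjusted p between 0.420 and 0.995). In TN cells the changes were -0.11 ± 0.24 for miR-146a-5p, 0.19 ± 0.28 for miR-146b-5p, 0.32 ± 0.23 for miR-155-5p and 0.23 ± 0.33 for miR-155-3p (edgeR adjusted p between 0.681 and 0.912). The median of all rows was 0.08 in VM cells and 0.16 in TN cells. All 3 Dirty_TN libraries lay above both Clean_TN libraries for miR-155-5p, as for 14.3% of all rows. These 2 comparisons share no library, but each shares its libraries with the VM against TN comparisons.

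Depth differed between libraries and is a second way to divide them. The 5 shallow libraries, with totals up to 4116012, held 3 VM and 2 TN libraries, and the 6 deep ones 3 and 3. The VM minus TN difference of miR-146a-5p in mean log2(CPM + 0.5) was 1.11 in shallow and 0.95 in deep libraries. For miR-155-5p it was 0.47 and 0.61, for miR-155-3p 0.57 and 0.92, and for miR-146b-5p 0.57 and 0.33. The log2 ratio of miR-146a-5p to miR-146b-5p was higher by 0.53 and 0.62. Each of these differences had the same direction in both sets of libraries. VM and TN libraries overlapped for miR-155-5p in the shallow set and for miR-146b-5p in the deep set. The sets differed in more than depth, since miR-34c-5p had a count in each of the 5 shallow libraries and in none of the 6 deep ones. The source of that difference was not tested. The sets also mix dirty and clean mice unevenly, and the part of depth was not tested on this split.

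**Figure D4:**
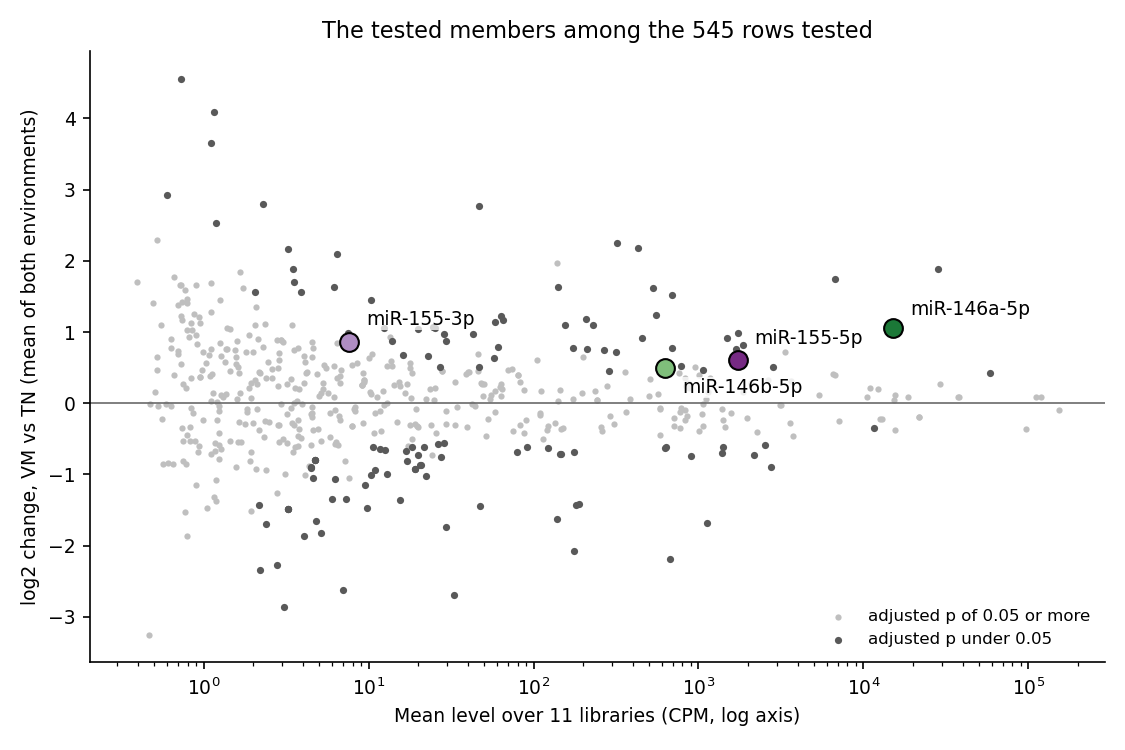
Log2 change of VM against TN, in the mean over environments, against the mean level over 11 libraries in CPM on a log axis, for the 545 rows tested. Dark grey points have an edgeR adjusted p under 0.05 and light grey ones do not. The 4 tested miRNAs are coloured and lie above the median change of 0.09, with miR-146a-5p at 1.06.

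Some other miRNAs had patterns across libraries close to those of miR-146a-5p, miR-146b-5p and miR-155-5p. Likeness was measured over the 11 libraries as the root mean square difference of log2(CPM + 0.5) values centred on their own mean, among 262 rows of 10 CPM or more. It describes these libraries, which share depth and scaling, and says nothing about function. Nearest to miR-146a-5p were miR-1843a-5p at 0.237, miR-149-5p at 0.264, miR-222-3p at 0.271, miR-5099 at 0.282 and miR-374b-5p at 0.290, where the SD of its own pattern was 0.594. Its seed partner miR-146b-5p came 8th in closeness, at 0.339, and miR-155-5p stood at 0.400. Nearest to miR-146b-5p were the 2 rows of miR-7a-5p at 0.156 and 0.159, miR-7b-5p at 0.205, miR-92a-3p at 0.207 and miR-92b-3p at 0.210. Nearest to miR-155-5p were miR-221-5p at 0.208, miR-328-3p at 0.210, miR-148b-3p at 0.223 and the 2 rows of miR-29b-3p, both at 0.226.

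Other miRNAs linked to NF-kB, as its targets or as regulators of its pathway, did not move as a block. Of a list of 16, 13 were tested, and 3 rose and 2 fell in the mean of VM against TN, where 11.4% of all rows rose and 12.3% fell. The median log2 change was 0.45, against 0.09 over all rows. The 3 that rose were miR-21a-5p, an oncogenic miRNA that activated T cells induce, by 1.88 ± 0.13, miR-10a-5p by 1.22 ± 0.14 and miR-222-3p by 0.76 ± 0.13. miR-21a-5p averaged 54413 CPM in Dirty_VM, 12853 in Dirty_TN, 30126 in Clean_VM and 9362 in Clean_TN, above miR-146a-5p in VM cells of both environments. The 2 that fell were miR-181b-5p, which represses an importin that carries NF-kB into the nucleus of endothelial cells, with -1.41 ± 0.13, and miR-132-3p, encoded in a cluster that CREB induces, with -1.36 ± 0.17. Each of the 5 kept its direction and passed in dirty mice and in clean mice taken alone. In dirty mice 4 rose and 2 fell, the fourth being miR-221-3p at 1.09 ± 0.24, as against 6.24% and 5.87% of all rows. In clean mice 4 rose and 2 fell, the fourth being miR-15a-5p at 1.71 ± 0.37, as against 9.72% and 7.71% of all rows. In dirty against clean mice none of the 13 passed in VM or in TN cells, nor in the interaction.

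**Figure D5:**
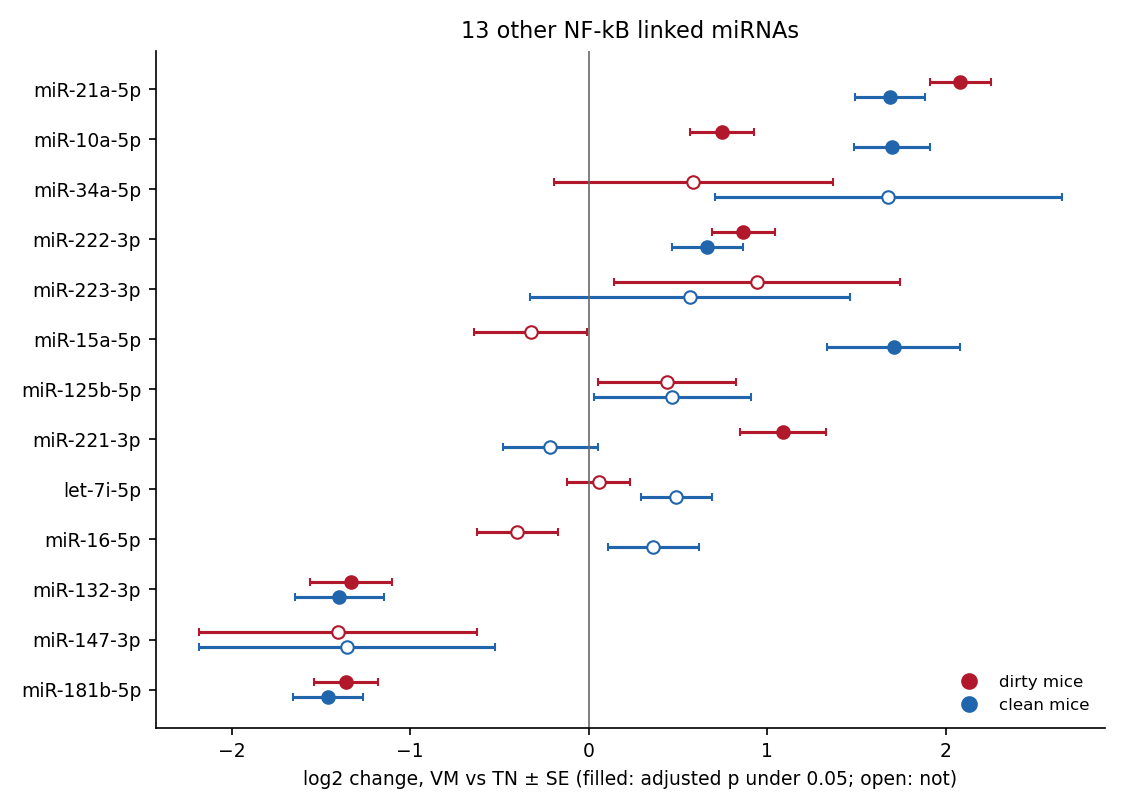
Log2 change ± SE of VM against TN in dirty and in clean mice for the 13 tested miRNAs of the NF-kB linked list, filled where the edgeR adjusted p was under 0.05. miR-21a-5p, miR-10a-5p and miR-222-3p are filled on the right in both environments, and miR-132-3p and miR-181b-5p on the left.

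Of 14 miRNAs linked to T cell activation, 4 of which are also on the NF-kB linked list, 6 rose and 3 fell in the mean of VM against TN, as against 11.4% and 12.3% of all rows. The median log2 change was 0.32, against 0.09 over all rows. Besides miR-21a-5p and miR-222-3p those that rose were miR-31-5p by 1.45 ± 0.35, miR-183-5p by 1.10 ± 0.27, miR-96-5p by 1.05 ± 0.17 and miR-182-5p by 0.91 ± 0.23. Besides miR-132-3p those that fell were miR-212-5p with -1.44 ± 0.47, from the same cluster, and miR-19b-3p with -0.71 ± 0.24. In dirty mice miR-183-5p stood at 0.016 ± 0.35 and miR-182-5p at 0.039 ± 0.30 (edgeR adjusted p = 0.989 and 0.965). In clean mice these were at 2.19 ± 0.43 and 1.79 ± 0.35, and neither interaction passed (edgeR adjusted p = 0.0950 and 0.0952). miR-31-5p passed in clean mice and not in dirty mice (1.02 ± 0.45, edgeR adjusted p = 0.178), while miR-96-5p passed in both. Neither miR-212-5p nor miR-19b-3p passed in either environment alone.

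Markers of non-T cells found in the spleen or other tissues were also counted, and some rose in VM cells, where 11.4% of all rows rose in the mean of VM against TN. Myeloid cells are rich in miR-146a and miR-155, and their marker miR-223 summed over both arms to between 1.64 and 2.98 CPM in Dirty_VM, 0.900 and 2.60 in Dirty_TN, 0.268 and 3.61 in Clean_VM and 1.20 and 1.27 in Clean_TN. The 1 of 2 myeloid miRNAs tested, miR-223-3p, had a mean log2 change of 0.76 ± 0.60 (SE, edgeR adjusted p = 0.390), with 0.94 ± 0.80 in dirty mice and 0.57 ± 0.89 in clean mice. The endothelial pair summed to between 29.6 and 53.0 CPM in Dirty_VM, 15.3 and 29.7 in Dirty_TN, 21.7 and 47.7 in Clean_VM and 18.4 and 19.3 in Clean_TN. Of the 2, miR-126a-3p (1 of them) rose by 0.87 ± 0.24 in the mean. It passed neither in clean mice (edgeR adjusted p = 0.0856) nor in dirty mice (edgeR adjusted p = 0.169). The 4 erythroid miRNAs summed to between 64.1 and 109 CPM in Dirty_VM, 38.1 and 76.2 in Dirty_TN, 61.5 and 137 in Clean_VM and 35.2 and 45.9 in Clean_TN. Of the 3 erythroid miRNAs tested miR-486a-5p rose by 1.14 ± 0.27 in the mean. It passed in clean mice (1.88 ± 0.43, edgeR adjusted p = 0.00985) and not in dirty mice (0.40 ± 0.35, edgeR adjusted p = 0.535). miR-144-3p was at 0 in all Dirty_TN libraries.

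The 4 stromal miRNAs summed to between 75.6 and 109 CPM in Dirty_VM, 48.7 and 72.0 in Dirty_TN, 62.8 and 105 in Clean_VM and 39.8 and 49.3 in Clean_TN. Among them miR-143-3p rose by 0.80 ± 0.18 in the mean. It passed in clean mice (edgeR adjusted p = 0.0146) and not in dirty mice (edgeR adjusted p = 0.202). The 5 epithelial miRNAs summed to between 1756 and 2199 CPM in Dirty_VM, 1282 and 1780 in Dirty_TN, 1495 and 1862 in Clean_VM and 1232 and 1318 in Clean_TN. Those that rose in the mean were miR-429-3p, with 0.51 ± 0.17, and miR-200a-3p, with 0.72 ± 0.13. Taken alone, both environments passed for miR-200a-3p and neither did for miR-429-3p. The median log2 changes of VM against TN over the tested members were 0.76 for the only tested myeloid miRNA, 0.96 for the endothelial, 1.14 for the erythroid, 0.31 for the stromal and 0.35 for the epithelial list, against 0.09 over all rows. Apart from miR-144-3p no listed marker was at 0 throughout a group. The part of other cells in the miR-146 and miR-155 differences was not tested.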

How the data were processed

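Small RNA was sequenced from 11 libraries (NEBNext kit, 60 to 100 ng of RNA, inserts of 18 to 35 bp, per the labels' protocols). The deposited table holds estimated counts, that is, expected counts as the authors made them, with 88.7% of values whole, on 2128 rows. The build was mm10 per the submitters' processing notes; the aligner, the counting program and the treatment of shared reads are not given in the sources used here. Here 120 repeated rows were removed, leaving 2008, and counts were rounded. filterByExpr kept 545 rows for a quasi-likelihood fit over all 4 groups in edgeR 4.0.16 (R 4.3.3) with TMM scaling, two-sided tests and Benjamini-Hochberg adjustment over the 545 rows at a threshold of 0.05. An SE was worked back from each fit as |log2 change| / √F. Alternatives used DESeq2 1.42.0 and limma 3.58.1 (voom), other scalings and filters, blocks and left-out libraries. Ratios used log2 of counts with 0.5 added and exact permutation within environments or subsets.

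The miRNAs and the lists were chosen with earlier results of these data known. Named besides the 5 were miR-146b-3p, list members with an adjusted p under 0.05 in the mean of VM against TN, and the 5 nearest rows by likeness. miR-221-3p, miR-15a-5p, miR-150-5p and the myeloid and erythroid markers at or near 0 were named after their values were seen. The same holds for miR-34c-5p and miR-142a-3p.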

Additional observations from a re-analysis of the deposited data

Results flagged for a closer look

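The log2 ratio of miR-146a-5p to miR-146b-5p moved in opposite directions with the environment in the 2 subsets. It was higher in Dirty_VM than in Clean_VM by 0.23, with all 3 Dirty_VM libraries above all 3 Clean_VM libraries, and lower in Dirty_TN than in Clean_TN, at -0.27, with all 3 Dirty_TN libraries below both Clean_TN libraries. In a test chosen after these values were seen, the difference between the subsets was 0.50 (two-sided exact permutation of environment within subsets, p = 0.025, adjusted p = 0.09 over 4 ratios), so it did not pass the adjustment. Leaving out each library in turn kept it between 0.36 and 0.63. For the ratio of miR-146a-5p to miR-155-5p the same test gave 0.77 (exact p = 0.045, adjusted p = 0.09). Because environment labels were permuted within each subset, an environment effect in 1 subset alone would also lower these p-values. They therefore do not isolate a difference between the subsets.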

How the results depend on the processing

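The change of miR-146a-5p in the mean of VM against TN passed under all alternatives run, between 0.90 and 1.09. Of the 5 miRNAs 3 passed in that mean, and 1 to 3 when a library was left out (1 without Clean_TN replicate 2 or 3). In clean mice 2 passed, 0 to 2 with a library left out (0 without Clean_TN replicate 2 or 3) and 0 with a replicate block per environment; in dirty mice 1 passed throughout. Over all rows in clean mice 95 passed, and 56 with a replicate block shared by both environments. The block per environment called 33 rows higher and 33 lower there. With a library left out 33 to 120 passed in clean mice (33 and 34 without a Clean_TN library, 61 without Clean_VM replicate 3). In dirty mice 66 passed, and 42 (without Dirty_VM replicate 3) to 94 with a library left out. Groups share replicate numbers, but deviations of same-numbered libraries from their group means correlated between -0.56 and 0.40 over 10 pairs, so the numbers were not taken to pair the libraries. With the block per environment miR-155-5p did not pass in the mean (edgeR adjusted p = 0.056) or in clean mice (0.0721), nor miR-146a-5p in clean mice (0.0540). The replicate block left the ratio of miR-146a-5p to miR-146b-5p at 0.56 between VM and TN (exact p = 0.0625, the smallest its sign flips allow, adjusted p = 0.5), and with a library left out it was 0.48 to 0.62. That ratio turned to 0.049 for dirty minus clean with the block, and lay between -0.087 and 0.049 with a library left out. For the miR-146a arms the block gave -0.22 and left-out libraries -0.22 to 0.57 for VM minus TN. The ratio of miR-146a-5p to miR-155-5p, dirty minus clean, lay between -0.18 and 0.069 with a library left out.

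For dirty against clean in TN cells DESeq2 called 3 rows, no filter 4, and left-out libraries 0 to 28 (28 without Dirty_TN replicate 3). In VM cells library totals gave 2, DESeq2 22, voom 1, no filter 16, the 10 CPM filter 2, only the groups compared 18, and left-out libraries 0 to 26 (26 without Dirty_TN replicate 3). For the interaction DESeq2 called 41, no filter 30, the 10 CPM filter 16, and left-out libraries 0 to 73 (73 without Dirty_TN replicate 3). None of the 5 miRNAs passed in any of these.

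Values near 0 changed sign. For dirty against clean in VM cells miR-146a-5p was -0.054 with DESeq2 size factors and -0.054 with DESeq2, -0.013 with voom, -0.038 with no filter, -0.00023 with the 10 CPM filter, -0.086 with rows summed per name, -0.0064 with the replicate block, -0.033 with only the groups compared and -0.085 with depth class as a term; left-out libraries gave -0.37 to 0.077. miR-155-3p was -0.012 with DESeq2 size factors, -0.0022 with DESeq2, -0.024 with no filter and -0.071 with rows summed, and -0.19 to 0.29 with a library left out. In TN cells miR-146b-5p was -0.014 with library totals and -0.097 to 0.15 with a library left out, and miR-155-3p -0.015 to 0.23. For the interaction miR-155-3p was 0.11 with library totals and -0.35 to 0.12 with a library left out, and miR-146a-5p -0.023 with depth class and -0.19 to 0.34. In dirty mice miR-146b-5p lay between -0.023 and 0.44 for VM against TN with a library left out. The cause of these moves was not tested. Clean_TN has 2 libraries, so a fit without either assumes that the other varies like the other groups, and the low counts of the 3p arms limit what can be seen.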
